A study of Mus musculus with 6 samples.

Results

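The genes described here encode subunits of the mitochondrial respiratory chain and of ATP synthase. They were taken by symbol: names starting with Nduf plus a, b, c, s or v and a digit (complex I), Sdha to Sdhd (complex II), names starting with Uqcr (complex III), with Cox and a digit of 4 to 8 (complex IV), and with Atp5 (complex V), without pseudogenes. Of 22180 genes with a probe set of their own on the array, 78 were members: 33 of complex I, 4 of complex II, 7 of complex III, 17 of complex IV and 17 of complex V. They were measured in Ly6D-negative common lymphoid progenitors, marrow cells that can still form T, B and natural killer cells, from 3 samples of OcnCre+;iDTR+/- mutant mice and 3 of OcnCre-;iDTR+/- control mice, 1 Affymetrix array each. In the mutants the osteocalcin promoter drives Cre recombinase, which switches on a diphtheria toxin receptor in osteocalcin-expressing bone cells. Every mouse, of both genotypes, carried 1 iDTR allele and had toxin injected daily for 4 weeks, and the marrow was taken the day after the last injection from adults 6 to 8 weeks old. The deletion was aimed at bone cells and not at the progenitors, and the comparison asks how their transcripts differ when those bone cells are lost. Whether each replicate was 1 mouse or a pool is not in the labels. The p-values thus reflect how these 6 samples vary, which may be technical, and with 3 arrays a group the precision is limited.

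The respiratory chain passes electrons from NADH (through complex I) or succinate (through complex II) to coenzyme Q, then through complex III and cytochrome c to complex IV, which reduces oxygen. Complexes I, III and IV pump protons across the inner mitochondrial membrane, and ATP synthase, complex V, lets them flow back to make ATP. Most subunits are encoded in the nucleus and a few in mitochondrial DNA. Quiescent blood stem cells are known to rely less on this pathway than dividing progenitors, which raise mitochondrial respiration as they proliferate. Nuclear genes of the chain have many processed pseudogenes and near-identical copies, so a probe set can also bind transcripts of a copy, and single-gene values are uncertain to that extent.

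Binding motifs of the factors NRF1, GABPA (an ETS factor) and YY1 are known from promoters of such genes. The printed stretches are examples picked because they hold such a motif, and do not show what the members have in common. RefSeq promoter windows of build GRCm38.p6, from 250 bases before to 50 after a gene's start, were found for 62 of the 74 members that were tested. The NRF1 core, GCGCA and GCGC parted by 1 base of any kind and read like the other motifs on both strands, stood in the windows of 15 of these 62 genes (24.2%), against 10% of 10349 other tested genes and 4.6% of all 32851 windows. The ETS core CCGGAAG stood in 17 of 62 (27.4%), against 17.8% of the other tested genes and 8.86% of all windows. The YY1 core AAGATGG stood in 10 of 62 (16.1%), against 8.01% of the other tested genes and 6.34% of all windows, and 37 of 62 members had at least 1 of the 3 cores. The letters CCAAT stood in 40.3% of members, 41.7% of other tested genes and 37.4% of all windows. An ETS core can share the letters AAG with a YY1 core, and Atp5j was the only member with both. A match is a run of letters and not a shown binding site. For each complex, the 250 bases before the start are given for the member with the lowest p whose stretch held an NRF1, ETS or YY1 core. They run 5′ to 3′ on the gene's strand, with the matches in capitals.
Ndufa11 (complex I), chr17:56717512-56717761, plus strand: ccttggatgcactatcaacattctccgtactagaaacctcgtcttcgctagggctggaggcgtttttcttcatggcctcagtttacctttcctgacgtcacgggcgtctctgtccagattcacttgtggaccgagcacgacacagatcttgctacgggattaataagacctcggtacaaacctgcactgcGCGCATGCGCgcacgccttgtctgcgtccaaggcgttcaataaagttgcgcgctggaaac
Sdha (complex II), chr13:74350241-74350490, minus strand: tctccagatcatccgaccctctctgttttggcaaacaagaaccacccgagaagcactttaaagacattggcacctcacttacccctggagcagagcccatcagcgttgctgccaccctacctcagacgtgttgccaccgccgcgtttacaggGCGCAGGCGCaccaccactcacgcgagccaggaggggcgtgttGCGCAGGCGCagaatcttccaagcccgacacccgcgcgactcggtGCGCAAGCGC
Uqcrh (complex III), chr4:116075071-116075320, minus strand: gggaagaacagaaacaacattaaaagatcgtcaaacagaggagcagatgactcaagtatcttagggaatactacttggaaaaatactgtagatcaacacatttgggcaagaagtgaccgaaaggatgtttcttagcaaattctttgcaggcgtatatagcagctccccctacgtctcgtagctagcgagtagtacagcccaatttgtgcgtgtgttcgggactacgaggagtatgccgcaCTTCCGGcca
Cox6a1 (complex IV), chr5:115348959-115349208, minus strand: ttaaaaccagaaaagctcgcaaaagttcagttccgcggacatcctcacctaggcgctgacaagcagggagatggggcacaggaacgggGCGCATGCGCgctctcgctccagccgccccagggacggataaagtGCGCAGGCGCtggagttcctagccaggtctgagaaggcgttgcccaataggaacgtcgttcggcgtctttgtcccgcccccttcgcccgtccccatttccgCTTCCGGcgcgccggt
Atp5g2 (complex V), chr15:102671048-102671297, minus strand: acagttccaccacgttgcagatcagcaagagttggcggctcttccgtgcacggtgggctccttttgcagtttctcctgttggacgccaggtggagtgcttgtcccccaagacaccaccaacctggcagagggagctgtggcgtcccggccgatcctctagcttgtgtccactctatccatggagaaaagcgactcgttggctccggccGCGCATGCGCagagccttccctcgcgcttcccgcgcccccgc
The Sdha stretch held 3 NRF1 cores and the Cox6a1 stretch 2 NRF1 cores and an ETS core close to the start. Uqcrh held its ETS core on the opposite strand. The median difference in expression between mutant and control was −0.23 over members with an NRF1 core and −0.27 over those without (log2). It was −0.22 with an ETS core and −0.27 without, −0.23 with a YY1 core and −0.27 without, and −0.35 with CCAAT and −0.22 without. These pairs of medians were not tested against each other.

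The arrays were not equally alike. Over all probe sets, correlations of mutant replicate 2 with the remaining arrays were 0.936 to 0.954, and those among the remaining arrays 0.973 to 0.989. Values are log2 and were already normalized. Bright genes were lower on mutant replicates 2 and 3: over the 1288 genes of the brightest 10% of tested genes that are not members, the median value minus the control mean was −0.005, −0.41 and −0.18 in mutant replicates 1, 2 and 3, against −0.03, 0.003 and 0.03 in the controls. Brightness is the mean log2 signal of a gene's probe set over the 6 arrays, and it depends on the probes as well as on the transcript. Markers of lymphoid progenitors gave signal on every array, with Il7r at 9.72 to 9.80 in mutants and 9.81 to 10.35 in controls, although the labels call the tissue bone marrow stromal cells. The osteoblast gene Bglap was dim, at 5.12 to 5.50 in mutants and 5.04 to 5.23 in controls, and Sp7 and Lepr were below the level tested. The other tested bone and stroma genes were Col1a1 (5.82 to 6.01 in mutants and 5.86 to 6.08 in controls), Col1a2 (5.19 to 5.57 in mutants and 5.27 to 5.71 in controls) and Cxcl12 (5.75 to 6.27 in mutants and 5.99 to 6.16 in controls), and the groups overlapped in each. Of 9 myeloid markers, all tested, the median relative to the control mean was 0.36, −0.25 and 0.03 in mutant replicates 1, 2 and 3, and 0.20, −0.12 and −0.05 in the controls. Mutant means were lower for 6 of 6 tested lymphoid progenitor markers (median −0.22), 5 of 5 T cell markers (−0.31) and 2 of 2 mature B and plasma cell markers (−0.42). They were higher for 4 of 4 erythroid (0.30) and 5 of 5 megakaryocyte markers (0.17), and no marker passed an adjusted p of 0.05 in limma. T cell markers had medians of −0.14, −0.41 and −0.21 in mutant replicates 1, 2 and 3, and −0.43, −0.21 and 0.64 in the controls. Control replicate 1 was thus the lowest array for the T cell markers and control replicate 3 the highest. Of 6 mature B and plasma markers with a probe set, only Cd22 and Sdc1 were bright enough to be tested. Their medians were −0.13, −0.80 and −0.32 in mutant replicates 1, 2 and 3, and −0.14, 0.15 and −0.01 in the controls. Like the members they were lowest on mutant replicate 2. The dim Ms4a1, Cr2, Fcer2a and Jchain had mutant means of 4.10, 4.08, 3.82 and 3.57 against 4.04, 3.97, 3.80 and 3.74 in controls. The part of these marker and array differences in the results below was not tested.

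No subunit gene passed an adjusted p of 0.05 (limma, Benjamini-Hochberg over the 13308 genes tested, of which 0 passed and 0% were called). The members nevertheless leaned 1 way: 69 of the 74 tested had a lower mean in mutant than in control progenitors, against 57.5% of all tested genes. The median difference was −0.27 on the log2 scale, with quartiles of −0.40 and −0.15, and the median over all tested genes was −0.04. An unadjusted p under 0.05 was reached by 11 members, all lower in mutants (14.9%), where 6.02% of all tested genes were lower at that level. None was higher at that level, where 2.01% of all tested genes were. In 10 members (13.5%) every mutant value was below every control value, against 9.99% of all tested genes, and in 0 every mutant value was above, against 5.4%. Genes as bright as the members also leaned lower: in the brightest 10% of tested genes, 85.6% of other genes had a lower mutant mean, 9.7% had an unadjusted p under 0.05 and were lower, and 16.8% did not overlap and were lower. In the other direction 1.01% did not overlap and were higher. Of the 43 members in that bright set, 43 had a lower mutant mean, 8 (18.6%) reached an unadjusted p under 0.05 and 6 (14%) did not overlap.

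The lean came from an uneven set of arrays. On mutant replicate 2, 70 of 74 members (94.6%) were below their control mean, against 57.5% of all tested genes and 85.5% of the other genes in the brightest 10%. Their median there was −0.68, so that the median member stood at 0.625 of its control level on the linear scale. On mutant replicate 3, 50 of 74 (67.6%) were below, against 58.5% of all tested genes and 76.6% of the other bright genes, a larger share than that of the members. The median was −0.19 (0.874 of the control level). On mutant replicate 1, 23 of 74 (31.1%) were below, against 47.5% of all tested genes and 51% of the other bright genes, and the median was 0.09 (1.06 of the control level). The controls had medians of 0.007, −0.001 and −0.002. These shares of members cover all 74, of which only 43 are in the brightest 10%. Mutant replicate 2 was the lowest of the 6 arrays for 58 members (78.4%), against 35.9% of all tested genes. In the brightest 10% it was the lowest for 39 of 43 members (90.7%), against 62.3% of the other genes. Mutant replicate 1 was the highest for 34 members, against 19.4% of all tested genes. The members furthest below their control mean on mutant replicate 2 were Ndufb3, the membrane subunit gene Ndufa1, and Atp5md, a small membrane subunit gene of ATP synthase.

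**Figure D1:**
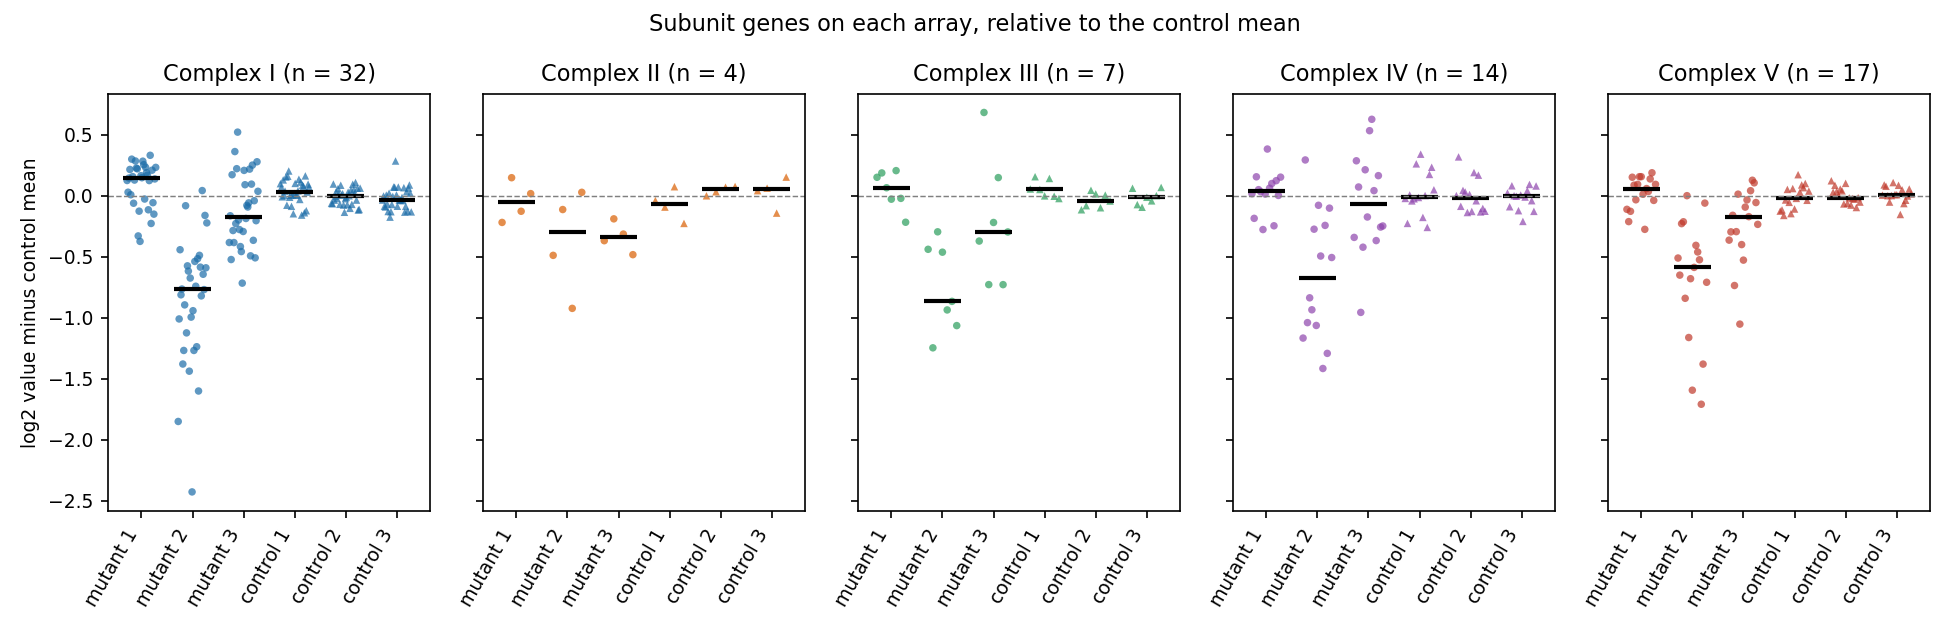
Each point is 1 of the 74 tested subunit genes, plotted as its log2 value minus its control mean (vertical axis) on each of the 6 arrays (horizontal axis), with circles for mutant and triangles for control arrays and a black bar at the median of the complex. Controls stay near 0, mutant replicate 2 is low in complexes I, III, IV and V and reaches −2.43 for Ndufb3, and mutant replicate 1 has medians above 0 except in complex II (−0.06).

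Set against genes of like brightness, the members stood out on mutant replicate 2 and little on the other arrays. For each member the median of the 400 other tested genes nearest in brightness was taken off, array by array. What was left had a median of 0.09, −0.35 and −0.04 in mutant replicates 1, 2 and 3, and of 0.05, −0.01 and −0.03 in the controls. On mutant replicate 2, 63 of 74 members were below genes of their brightness, on mutant replicate 3, 41, and on mutant replicate 1, 24. In control replicates 1, 2 and 3 the counts were 23, 40 and 51, so those of mutant replicates 1 and 3 lay within the range of the controls. Over the groups, genes of like brightness differed by a median of −0.19, and the members by a further −0.10, with 58 of 74 below genes of their brightness. This further difference was 0.03 without mutant replicate 2, −0.17 without mutant replicate 1 or mutant replicate 3, and −0.08 to −0.12 with 1 control left out.

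**Figure D2:**
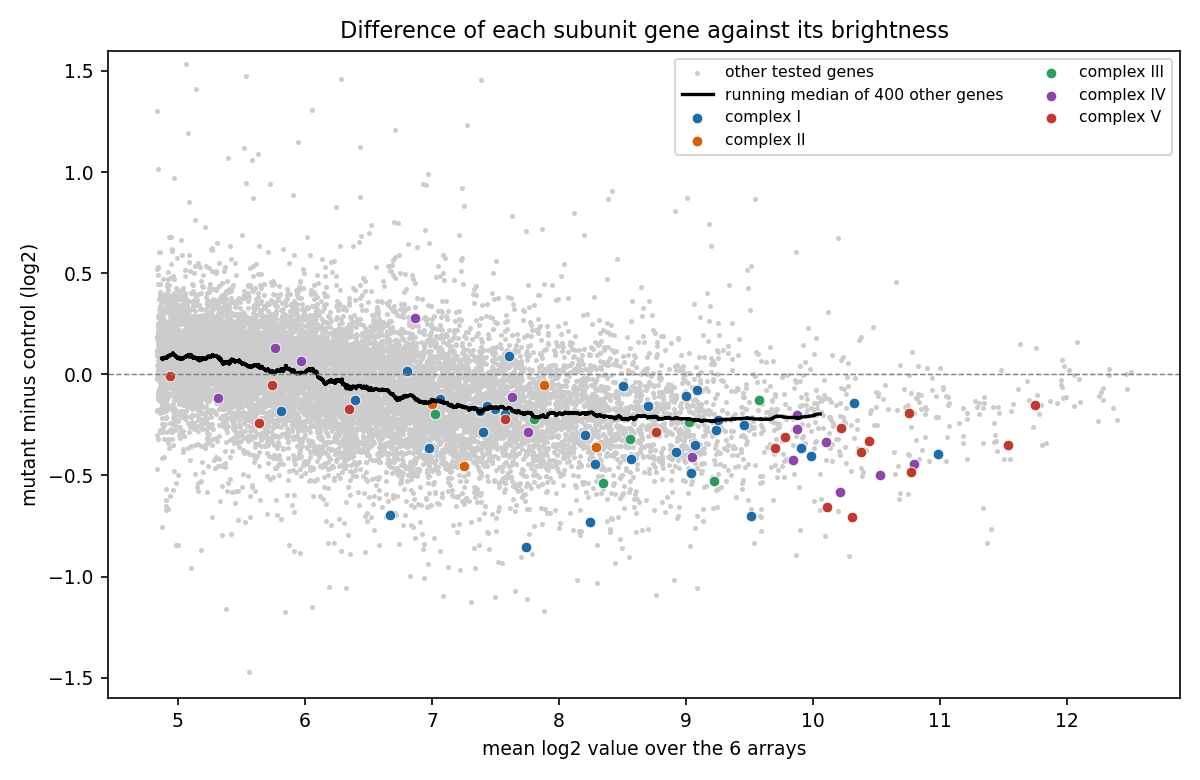
The difference between mutant and control means (log2, vertical axis) is plotted against the mean log2 value over the 6 arrays (horizontal axis) for the other tested genes (grey) and the 74 subunit genes coloured by complex, with the running median of 400 other genes as a black line and 2 other genes beyond the vertical range. The running median falls as genes get brighter, and 58 of the 74 subunit genes lie below genes of their brightness.

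Complex I takes electrons from NADH and is the largest of the chain. The mutant mean was lower for 30 of its 32 tested genes, whose median was −0.26, and 5 (15.6%) reached an unadjusted p under 0.05. At that level 6.02% of all tested genes were lower, and 9.7% of the other genes in the brightest 10%. Ndufb11, an X-linked gene of a membrane-arm subunit, was at 6.64, 6.02 and 6.30 in mutants and 6.87, 6.88 and 7.30 in controls. The groups did not overlap, the difference was −0.70 ± 0.19 (SE), and it did not pass (adjusted p = 0.594, limma). Ndufb10, another membrane-arm gene, was at 8.65, 8.10 and 8.32 in mutants and 8.79, 8.70 and 8.85 in controls (−0.42 ± 0.16), again without overlap. Ndufa9, whose subunit sits where the membrane arm meets the matrix arm, was at 8.27, 7.17 and 8.19 in mutants and 8.52, 8.62 and 8.67 in controls. Its values did not overlap, but mutant replicate 2 lay far below the other 2 mutants, and the difference of −0.73 ± 0.28 became −0.37 ± 0.12 without that array.

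The core subunits of the matrix arm carry the flavin and the iron-sulfur clusters. Ndufs1, the iron-sulfur subunit gene of the NADH-oxidising part, was at 7.05, 6.67 and 6.67 in mutants and 7.003, 7.26 and 7.23 in controls. Mutant replicate 1 was within the control range, and the difference was −0.37 ± 0.15 (SE). Ndufs8, an iron-sulfur subunit gene close to the coenzyme Q site, was at 8.45, 7.74 and 8.00 in mutants and 8.39, 8.57 and 8.57 in controls (−0.45 ± 0.19). Ndufv1, which encodes the flavin-carrying subunit, had non-overlapping but near-equal values of 7.43, 7.42 and 7.38 in mutants and 7.61, 7.46 and 7.67 in controls. Its difference of −0.17 ± 0.11 was that of genes of its brightness, from which it was −0.008 apart. Ndufs7 (−0.16 ± 0.22), Ndufs3 (−0.12 ± 0.20) and Ndufv2 (−0.06 ± 0.22) had differences smaller than their errors. Ndufb1, an accessory subunit gene, was not analysed here.

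The largest difference of all members was in Ndufb3, a small membrane-arm subunit gene, at 8.33, 5.74 and 7.87 in mutants and 8.19, 8.14 and 8.17 in controls. The mean difference was −0.85 ± 0.58 (SE), and −0.06 without mutant replicate 2, which held the only value below 7. The 2 complex I genes with a higher mutant mean were Ndufa5 (0.09 ± 0.14) and Ndufv3 (0.015 ± 0.15). The difference of Ndufv3 was among the smallest 3 of all members and turned below 0 when arrays were centred on their medians (−0.051). Ndufa6 and Ndufs4, accessory subunit genes, and Uqcrb of complex III had slightly lower mutant means, yet without mutant replicate 2 they were at 0.40 ± 0.14, 0.29 ± 0.12 and 0.43 ± 0.17 (SE). Ndufa4, counted here by its symbol although its protein is now placed in complex IV, was at 11.12, 10.29 and 10.95 in mutants and 11.10, 11.24 and 11.20 in controls.

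Complex II, succinate dehydrogenase, also works in the citric acid cycle and has no subunit encoded in mitochondrial DNA. All 4 of its genes had a lower mutant mean (median −0.25). Sdha, the flavin-carrying catalytic subunit gene, was at 8.25, 7.98 and 8.10 in mutants and 8.43, 8.47 and 8.51 in controls. The 3 mutant values lay close together and below every control, with a difference of −0.36 ± 0.12 (SE, adjusted p = 0.594 in limma) and −0.29 without mutant replicate 2. Sdhc, a membrane anchor gene, was at 7.35, 6.55 and 7.16 in mutants and 7.55, 7.55 and 7.33 in controls, where mutant replicate 1 just overlapped. Sdhd, the other anchor gene (−0.15 ± 0.18), and Sdhb, the iron-sulfur subunit gene (−0.05 ± 0.13), had differences smaller than their errors. As a complex these genes had a median of −0.06, −0.30 and −0.34 in mutant replicates 1, 2 and 3, so mutant replicate 2 was not the lowest here. Without that array the median was −0.23, and after brightness trends were evened out by cyclic loess it was −0.11.

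Complex III passes electrons from coenzyme Q to cytochrome c. The mutant mean was lower for all 7 of its genes (median −0.24), 2 reached an unadjusted p under 0.05 and 3 did not overlap. Of all tested genes, 6.02% were lower at that level and 9.99% were lower without overlap. In the other genes of the brightest 10% these shares were 9.7% and 16.8%, and 7 genes are few to set against them. Uqcrh, the hinge subunit gene that helps cytochrome c bind, was at 8.59, 7.75 and 7.88 in mutants and 8.61, 8.62 and 8.61 in controls. Mutant replicate 1 lay only just below the controls, and the other 2 mutants well below (−0.54 ± 0.21, SE). Uqcrq, a small accessory subunit gene, was at 9.27, 8.42 and 9.19 in mutants and 9.46, 9.44 and 9.55 in controls (−0.53 ± 0.22, and −0.26 without mutant replicate 2). The core subunit genes Uqcrc2 (−0.24 ± 0.14) and Uqcrc1 (−0.32 ± 0.20) and the Rieske iron-sulfur gene Uqcrfs1 (−0.19 ± 0.29) did not pass. Uqcrfs1 turned to 0.18 without mutant replicate 2.

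Complex IV, cytochrome c oxidase, has subunits that exist in forms for different tissues. The mutant mean was lower for 11 of its 14 tested genes (median −0.28), 1 (7.14%) reached an unadjusted p under 0.05 and 0 were without overlap. Of all tested genes, 6.02% were lower at that level and 9.99% were lower without overlap. Cox5b, a nuclear-encoded structural subunit gene, was at 10.55, 9.66 and 9.54 in mutants and 10.46, 10.54 and 10.50 in controls. Mutant replicate 1 was above every control and the other 2 mutants below, and the difference was −0.58 ± 0.25 (SE). Its dimmer second probe set differed by −0.18. Cox4i1, the widely expressed form of subunit 4, was at 10.79, 9.61 and 10.43 in mutants and 10.75, 10.77 and 10.79 in controls (−0.50 ± 0.27, and −0.16 without mutant replicate 2). Cox5a, at 10.17, 8.97 and 10.08 in mutants and 10.02, 9.92 and 10.09 in controls, turned to 0.11 without that array. Cox7a2l, a factor that joins complexes III and IV into supercomplexes, had close mutant values of 7.65, 7.66 and 7.53 against 7.64, 8.07 and 7.99 in controls (−0.29 ± 0.14).

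The 3 complex IV genes with a higher mutant mean are forms typical of certain tissues. Cox6b2, the testis form, was at 7.11, 6.65 and 7.26 in mutants and 7.07, 6.60 and 6.52 in controls (0.28 ± 0.21, SE). The groups overlapped, with mutant replicate 2 near the lower controls and control replicate 1 near the higher mutants. Cox4i2, known from lung, differed by 0.13 ± 0.19 and Cox7a1, from heart and skeletal muscle, by 0.06 ± 0.26, both smaller than their errors. Another muscle form, Cox6a2, was at −0.11 ± 0.18. With these 4 forms left out, the median of complex IV was −0.37. Cox7b2, Cox8b and Cox8c of complex IV and Ndufa4l2, a relative of Ndufa4 known to respond to low oxygen, fell in the dimmest 40% of genes (mean under 4.84) and were not tested. Ndufa4l2 (mean 4.67) was at 4.82, 4.73 and 4.83 in mutants and 4.53, 4.61 and 4.52 in controls, and Cox8c at 3.57, 3.52 and 3.50 in mutants and 3.77, 3.74 and 3.82 in controls. The groups did not overlap in either gene, with Ndufa4l2 higher and Cox8c lower in mutants, and no background level was measured to set them against. The members nearest the limit were Cox8b, just outside at a mean of 4.80, and Atp5g1, just inside at 4.94.

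Complex V, ATP synthase, has a catalytic head in the matrix, a stalk and a ring of c subunits in the membrane. All 17 members were tested, the mutant mean was lower for each, and their median was −0.28. Atp5b, the catalytic beta subunit gene, was at 10.36, 9.92 and 10.27 in mutants and 10.45, 10.60 and 10.66 in controls, without overlap (−0.39 ± 0.15, SE, adjusted p = 0.594 in limma, and −0.25 without mutant replicate 2). Its partner in the head, the alpha subunit gene Atp5a1, was at 10.49, 10.09 and 10.24 in mutants and 10.48, 10.72 and 10.61 in controls (−0.33 ± 0.14), where mutant replicate 1 overlapped control replicate 1. The gamma subunit gene Atp5c1, of the rotating stalk, differed by −0.17 ± 0.12, and Atp5o, of the stalk that holds the head, by −0.05 ± 0.11. Atp5o had no overlap (5.73, 5.71 and 5.71 in mutants and 5.73, 5.75 and 5.82 in controls), with mutant replicate 1 and control replicate 1 equal at 2 decimals.

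The genes Atp5g1, Atp5g2 and Atp5g3 are known to encode the same mature c subunit with different import sequences, and their values went apart. Atp5g2 was at 10.75, 9.49 and 9.60 in mutants and 10.51, 10.70 and 10.76 in controls, a difference of −0.71 ± 0.31 (SE). Both mutant replicates 2 and 3 were about 1 below the controls, while mutant replicate 1 was within them. A second probe set of Atp5g2 differed by −0.85 ± 0.29. Atp5g3 was at 10.09, 9.25 and 9.53 in mutants and 9.99, 9.86 and 9.94 in controls (−0.31 ± 0.20). Atp5g1, close to the lowest level tested, was at −0.007 ± 0.11, the smallest difference of all members. Whether the 3 genes differ from each other in their response was not tested.

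**Figure D3:**
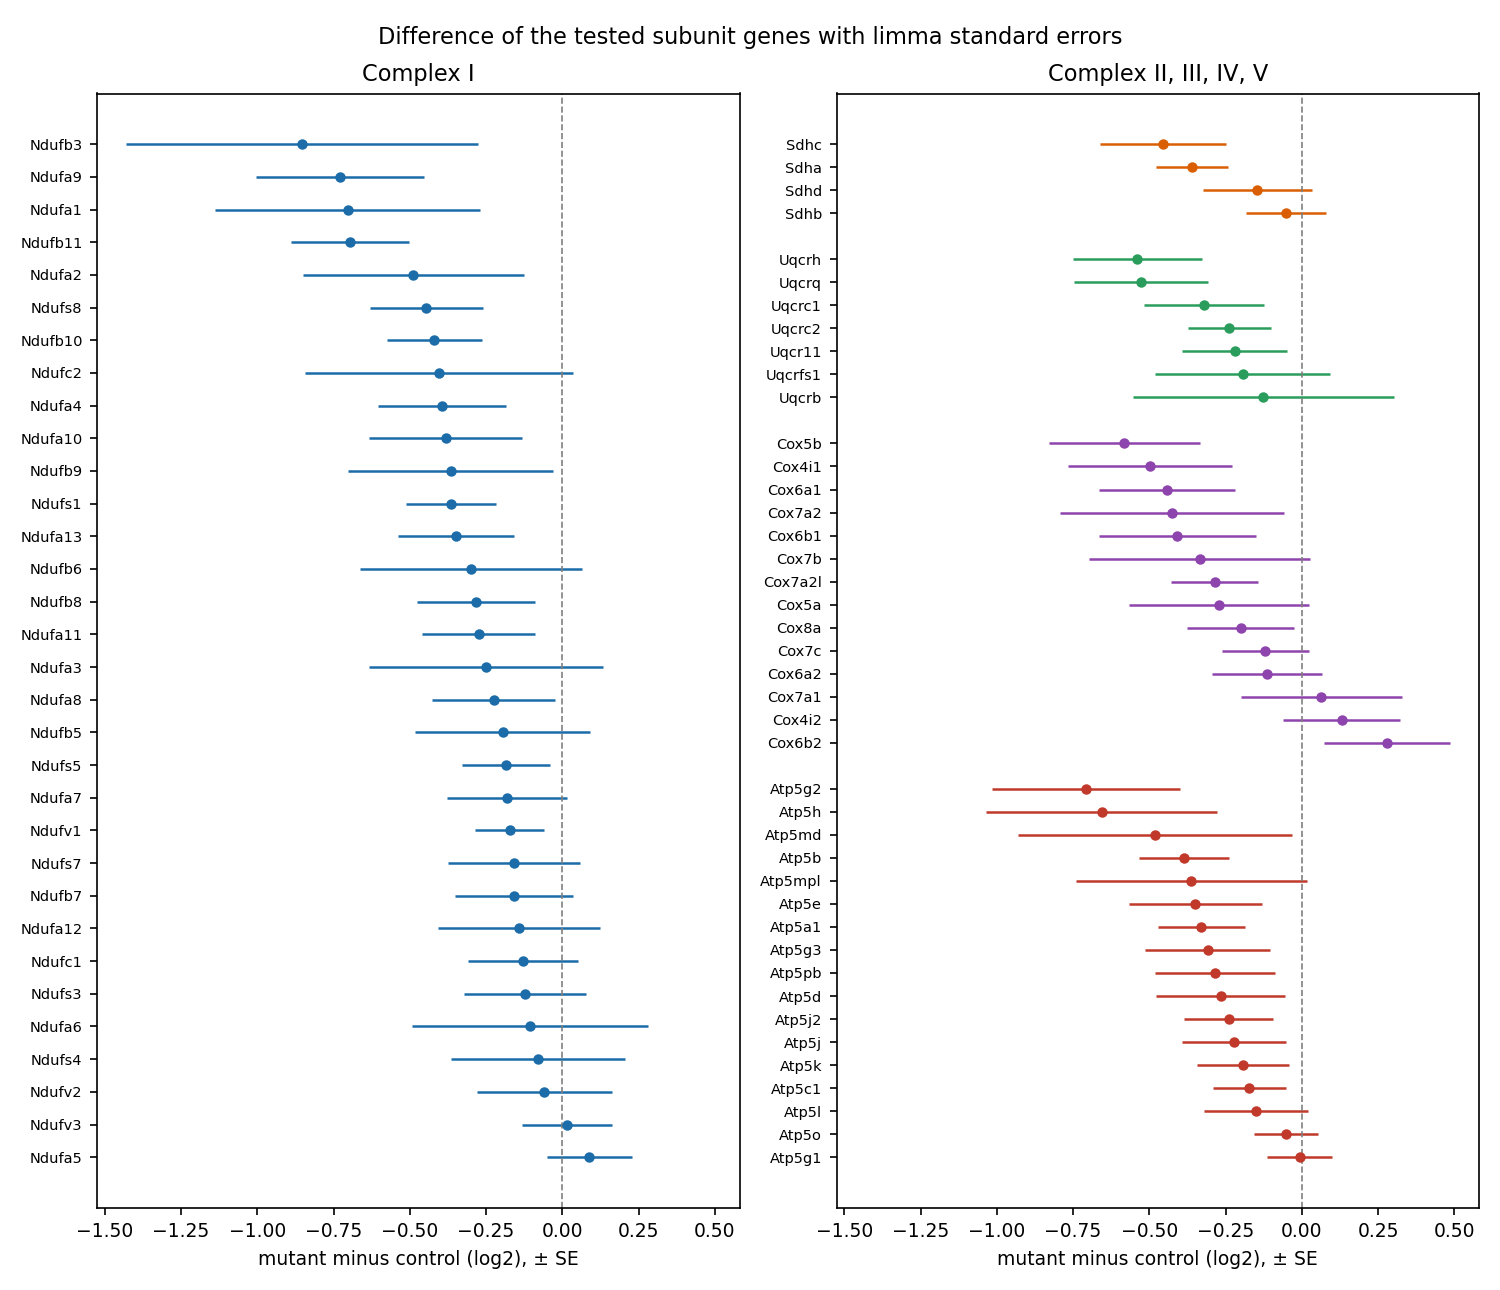
Points give the difference between mutant and control means (log2, horizontal axis) of each of the 74 tested subunit genes (rows), with bars of 1 limma standard error, for complex I at left and complexes II to V at right. Differences run from −0.85 for Ndufb3 to 0.28 for Cox6b2, 69 lie below 0, and the bars are widest where mutant replicate 2 stood apart, as in Ndufb3.

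The 5 complexes had near-equal medians, from −0.24 in complex III to −0.28 in complex V, and their order was not tested. Less the genes of like brightness the medians were −0.08, −0.09, −0.07, −0.12 and −0.11 for complexes I to V. In complex V, 16 of 17 members were below genes of their brightness, in complex IV 10 of 14, in complex III 6 of 7, in complex II 3 of 4 and in complex I 23 of 32. On mutant replicate 2 the excess over genes of like brightness was −0.39 in complex I, −0.47 in complex III, −0.46 in complex IV and −0.25 in complex V, but 0.09 in complex II. On mutant replicate 3 it was 0.03, −0.16, −0.09, 0.11 and −0.07 for complexes I to V. No complex was thus below genes of its brightness on every mutant array.

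**Figure D4:**
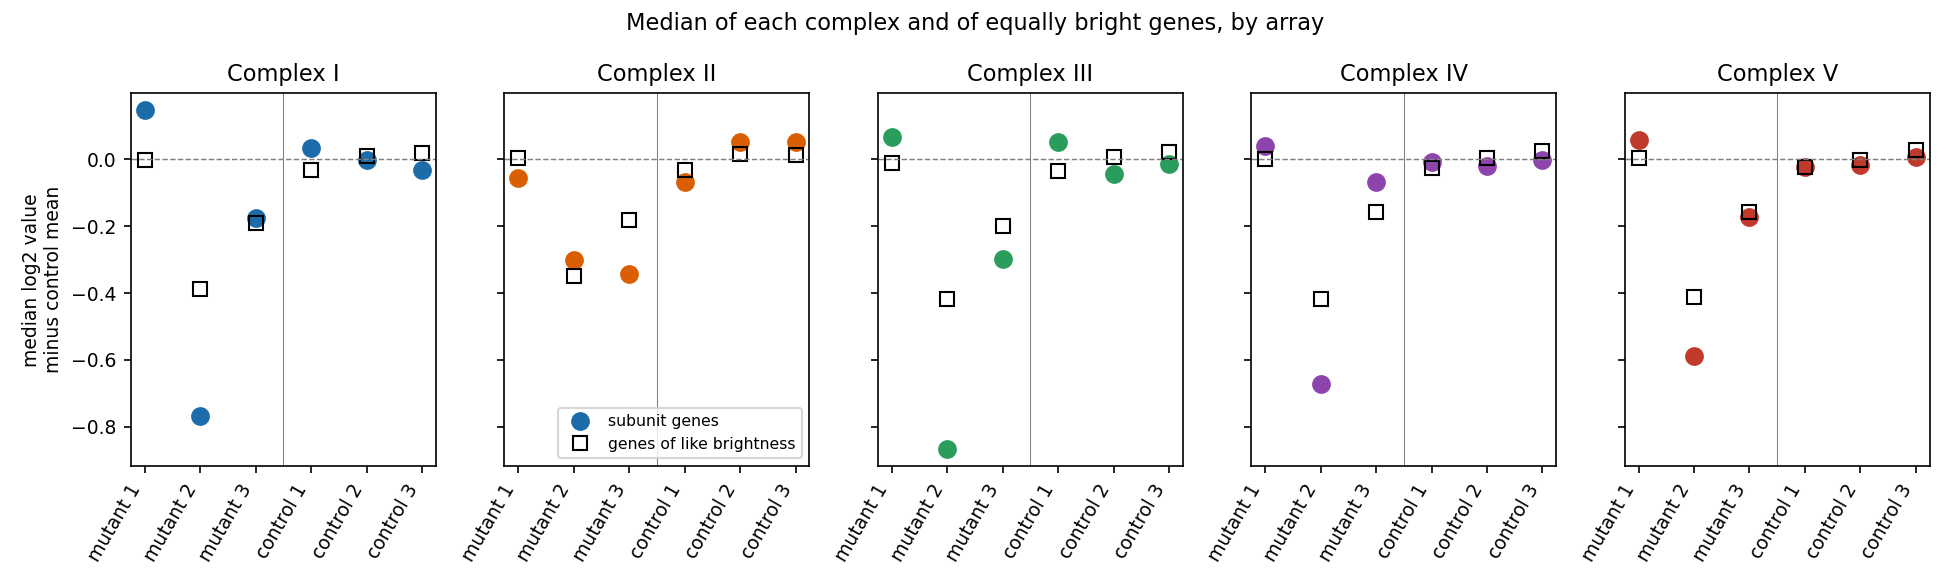
For each complex (panels) and array (horizontal axis), the filled circle is the median over its tested genes after subtracting each gene's control mean (log2, vertical axis), and the open square is the same for genes of like brightness. On mutant replicate 2 the circles lie below the squares in complexes I, III, IV and V, least so in complex V (−0.59 against −0.41). In complex II the circle lies above the square there (−0.30 against −0.35). On mutant replicate 3 circles and squares lie within 0.16 of each other, furthest apart in complex II (−0.34 against −0.18).

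Without mutant replicate 2, 47 of 74 members had a lower mutant mean, against 54.1% of all tested genes, and the median was −0.06. The median of complex I was then −0.01, of complex III −0.12, of complex IV −0.04 and of complex V −0.10. An unadjusted p under 0.05 was reached by 4 lower members (Ndufa9, Ndufb11, Ndufs5 and Sdha), with 4.98% of all genes lower at that level, and by 4 higher members (Cox6b2, Ndufa6, Ndufs4 and Uqcrb), with 2.61% of all genes higher. None passed after adjustment. Without mutant replicate 1 the median was −0.44 and 35 members were lower at that level, with 16.1% of all genes. The choice of arrays therefore set the size of the lean, and mutant replicates 1 and 2 moved it in opposite directions.

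Of the 9 members with more than 1 probe set of their own, 8 differed in the same direction in both, and Cox7b, at −0.34 in the set used, was at 0.09 in a much dimmer one. Probe sets listing several genes cover 7 further subunit genes and were not tested. The brighter of the sets listing Cox6c with Gm6265 was at 11.59, 9.58 and 11.02 in mutants and 11.37, 11.39 and 11.43 in controls, with mutant replicate 2 again far below the rest. Those listing Uqcr10 (7.59 ± 0.39 in mutants and 7.78 ± 0.19 in controls, SD, n = 3 each), Ndufb4 and Ndufs6 also had lower mutant means, and the set listing Ndufb2 with Adck2 a higher one (7.58 ± 0.54 and 7.45 ± 0.07). The tested members Ndufs1, Ndufs5 and Uqcrb are also listed in such sets, which differed by −0.18, −0.52 and −0.17. That of Ndufs5 was at 7.41, 6.11 and 6.38 in mutants and 7.36, 6.98 and 7.14 in controls. That of Uqcrb was at 5.75, 5.84 and 5.61 in mutants and 5.69, 6.32 and 5.71 in controls.

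Other mitochondrial genes also had mostly lower mutant means, and none passed an adjusted p of 0.05. Of 43 tested assembly factor genes, which help build the complexes without being part of them, 33 had a lower mutant mean (median −0.20), and 5 were lower at an unadjusted p under 0.05. Of all tested genes, 57.5% had a lower mutant mean and 6.02% were lower at that level. In the brightest 10% without members these shares were 85.6% and 9.7%. Lyrm7, which helps insert the Rieske subunit into complex III, was at 4.84, 5.08 and 5.56 in mutants and 5.92, 6.05 and 5.72 in controls, where mutant replicate 1 was the lowest and the groups did not overlap (−0.73 ± 0.19, SE). Coa3, a complex IV assembly gene, was at 7.42, 6.29 and 6.72 in mutants and 7.48, 7.68 and 7.61 in controls (−0.78 ± 0.26). Less the genes of like brightness the assembly factors had a median of −0.11.

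All 17 tested genes of the citric acid cycle and pyruvate dehydrogenase had a lower mutant mean (median −0.20), 3 of them with an unadjusted p under 0.05. At that level 6.02% of all tested genes were lower, and 9.7% of the brightest 10% without members. The median of the 17 genes was 0.003 apart from genes of like brightness. Idh3b, a subunit gene of isocitrate dehydrogenase, was at 8.93, 8.45 and 8.76 in mutants and 9.18, 9.12 and 9.23 in controls, and Ogdh, of oxoglutarate dehydrogenase, at 7.75, 7.68 and 7.37 in mutants and 7.95, 7.93 and 8.15 in controls, both without overlap. Of 17 genes of electron carriers and coenzyme Q synthesis 13 were lower (median −0.07), with 0 at an unadjusted p under 0.05; the lowest p were those of the electron transfer flavoprotein genes Etfb (−0.53 ± 0.28, SE) and Etfa (−0.52 ± 0.32). Of 21 genes of mitochondrial DNA maintenance and biogenesis 16 were lower (median −0.14), and the lowest p were those of the mitochondrial transcription factor genes Tfb2m (−0.58 ± 0.29) and Tfam (−0.36 ± 0.18). Of 17 inner membrane carrier and cristae genes 13 were lower (median −0.19), among them the ADP/ATP carrier gene Slc25a5 (−0.32 ± 0.17) and the prohibitin gene Phb2 (−0.35 ± 0.18). Less the genes of like brightness, the electron carrier, mitochondrial DNA and inner membrane lists had medians of −0.06, −0.06 and −0.03. Below genes of their brightness were 10 of 17, 13 of 21 and 10 of 17 genes. The 13 subunits encoded in mitochondrial DNA had no probe set named here and were not analysed.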

How the data were processed

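Per the submitters' processing notes, the authors made the deposited log2 probe set values with RMA, which corrects background, equalises array distributions and summarises probes; its version and the build: not given in the sources used here. RNA was amplified by a NuGEN process, per the labels' protocols. There are no detection calls. Of 41345 probe sets, 23521 carried 1 symbol in the platform annotation, 1814 several and 16010 none. Each of 22180 genes took its probe set with the highest mean, and the dimmest 40% (mean under 4.84) were not tested. The test of mutant against control used lmFit and eBayes of limma 3.58.1 in R 4.3.3 ( 2-sided, Benjamini-Hochberg over 13308 genes), checked on simulated data. The samples were grouped by title. Per-array medians are of log2 value minus control mean. Named genes were core subunits, per complex the 2 lowest p in each direction, the 3 largest and 3 smallest differences, untested members, and the 2 lowest p of each further list; others (Ndufa1, Ndufa4, Ndufa6, Ndufs4, Ndufs5, Uqcrb, Cox6a2, Cox7a1, Cox7b, Atp5md, the promoter genes and genes of several-gene probe sets) were named after their values were seen. Members and lists were chosen with earlier results of these data known. Alternatives are in the closing section.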

Additional observations from a re-analysis of the deposited data

How the results depend on the processing

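No subunit gene passed an adjusted p of 0.05 in limma under any alternative except array weights, which called 23 members (and 2960 genes in all) by giving most weight to mutant replicate 3. At an unadjusted p under 0.05, 11 of 74 members were lower, against 6.02% of all tested genes. The count was 6 with repeated quantile normalization (4.01% of all tested genes) and 3 with cyclic loess (4.31%). It was 6 with a trended and robust prior (5.45%), 2 in the unmoderated test (4.23%) and 35 with array weights (26%). Dropping a mutant array gave 35 for replicate 1 (16.1%), 4 for replicate 2 (4.98%) and 5 for replicate 3 (3.55%). Dropping a control array gave 6 for replicate 1 (5.45%), 3 for replicate 2 (1.8%) and 1 for replicate 3 (2.07%). With cyclic loess, in the unmoderated test and without control replicate 3, the share of members was thus below that of all tested genes. In the other settings named here it was above. The median over all members was −0.16 with repeated quantile normalization and −0.13 with cyclic loess, and −0.44 to −0.06 on leaving out 1 array; that of complex II was −0.12 and −0.11 in these normalizations. Centring arrays on their medians moved the median of all tested genes to −0.11. No filter on dim genes, a 60% filter, averaging probe sets, placing Ndufa4 in complex IV and 200 or 800 genes of like brightness changed no direction of a median over members or a complex; with no filter the median of all genes was 0.025, with 44.6% lower in mutants. Leaving out 1 array did: less genes of like brightness, the medians were 0.03 over all members, 0.093 in complex I and 0.038 in complex IV without mutant replicate 2, and 0.0038 in complex III without control replicate 1. Correlations of same-numbered deviations from the group means were 0.13, 0.20 and −0.13. Mutant replicates 1 and 2 each correlated best with the control of their own number, and mutant replicate 3 did not. Whether the replicate numbers pair the arrays was not settled. With the replicate block 11 members were still lower at an unadjusted p under 0.05, against 5.85% of all tested genes. With the sex-linked gene Eif2s3y, high on 4 of 6 arrays, as a block there were 8, against 5.61%. Eif2s3y was at 7.74, 7.31 and 4.77 in mutants and 4.88, 7.82 and 7.85 in controls. Xist, also sex-linked, was at 8.03, 5.57 and 10.72 in mutants and 11.04, 8.07 and 6.57 in controls. Single genes turned direction. Ndufv2 was at 0.091 with repeated quantile normalization, 0.12 with cyclic loess and 0.25 with array weights, and Sdhb at 0.10 and 0.11 in the 2 normalizations. Array weights gave 0.096 for Ndufs3, 0.14 for Uqcrfs1 and 0.031 for Cox5a, and centred arrays gave −0.051 for Ndufv3. On leaving out 1 array, the ranges were −0.23 to 0.21 for Ndufv2, −0.25 to 0.11 for Ndufs3, −0.34 to 0.084 for Ndufs7, −0.15 to 0.017 for Sdhb, −0.26 to 0.022 for Sdhd, −0.39 to 0.18 for Uqcrfs1, −0.48 to 0.11 for Cox5a, −0.034 to 0.020 for Atp5g1 and −0.094 to 0.13 for Ndufv3. The cause was not tested.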
